A study of Homo sapiens with 19 samples.

Results

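The genes described here are 8 of the 23441 in the RNA-seq count table of 786-O cells: the chemokine receptors CXCR4 and ACKR3 (formerly CXCR7), the chemokine ligands CXCL1, CXCL2, CXCL3, IL8 (CXCL8) and CCL2, and the cytokine IL6. They were chosen by symbol, with the rise of ACKR3 in HIF-2α overexpressing cells already seen in these libraries, so their values in HIF-2α overexpressing against control cells are given as a description, and nothing is read from counts of calls in that comparison. All 8 passed the filter on low counts, which kept 14225 genes, CXCR4 and CCL2 included, whose levels were under 1 CPM in some libraries (CPM, counts scaled to the library's total times its TMM factor).

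786-O is an established line of clear cell renal carcinoma. It carries no functional VHL, so its endogenous HIF-2α is stable in oxygen, and it makes only truncated or fused HIF-1α transcripts. Pools of these cells, not clones, were infected with the lentiviral vector pRRL.IRES.EGFP, empty (control cells) or carrying the coding sequence of wild-type HIF-1α (HIF-1α re-expressing cells) or wild-type HIF-2α (HIF-2α overexpressing cells). Each pool gave 3 RNA-seq libraries, numbered 1 to 3, of 27852754 to 54287621 counts. For each antiserum and pool, 1 ChIP-seq library gave a list of peaks: HIF-1β and HIF-2α in all pools and HIF-1α in the HIF-1α re-expressing cells, 7 lists in all. All groups therefore share the loss of VHL and the viral infection, and no group lacks endogenous HIF-2α.

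The labelled cells were checked against markers. The epithelial and renal carcinoma markers were 9 genes. VIM had a mean of 5042 CPM over the 9 libraries, MET 690.8 CPM and the keratin gene KRT8 418.7 CPM. CDH2 was at 282.4 CPM, PAX8, the renal lineage factor, at 245.0 CPM and KRT18 at 141.0 CPM. CA9, PAX2 and NDUFA4L2 were lower, with means of 29.9, 16.1 and 0.923 CPM. PTPRC, which marks all leukocytes, was at 0 to 0.0853 CPM. Of the 8 leukocyte markers 1 was at 0 in every library and only CD68 was abundant, with a mean of 104.2 CPM beside 0.481 CPM for LYZ and 0.276 CPM for CD14. Their summed level was 29.6 to 156.7 CPM in control, 56.9 to 161.7 CPM in HIF-1α re-expressing and 108.0 to 159.1 CPM in HIF-2α overexpressing cells. The 6 endothelial markers, led by PECAM1, KDR and TEK, summed to at most 1.62 CPM and the 6 fibroblast markers, led by LUM, COL1A1 and THY1, to 1.93 to 19.7 CPM in any library. The viral transcripts were counted with the endogenous ones: HIF1A was at 30.4, 36.7 and 151.6 CPM in control libraries 1, 2 and 3, at 171.5, 1682 and 472.6 CPM in HIF-1α re-expressing and at 15.3, 30.4 and 17.5 CPM in HIF-2α overexpressing cells. EPAS1, the gene of HIF-2α, was at 455.9, 224.2 and 162.1 CPM in control, 575.3, 627.1 and 397.1 CPM in HIF-1α re-expressing and 945.9, 3244 and 879.8 CPM in HIF-2α overexpressing libraries and was thus highest in HIF-2α overexpressing cells in every replicate, most in library 2. The library labelled control 3 stood apart from the other control libraries. Its HIF1A level was near that of HIF-1α re-expressing library 1, and CA9, a HIF-1α target and renal carcinoma marker, was at 0, 0.171 and 14.3 CPM in control libraries 1, 2 and 3, at 8.46, 176.6 and 68.3 CPM in HIF-1α re-expressing and at 0.120, 0.105 and 0.694 CPM in HIF-2α overexpressing libraries. Values without that library are given beside several of the results it touches. With the replicate number as a block (each pool compared within a replicate number), CA9 rose by a log2 fold change of 5.72 in HIF-1α re-expressing against control cells (SE 1.36, adjusted p = 0.043 by edgeR) and was 8.85 higher than in HIF-2α overexpressing cells (SE 1.55, adjusted p = 0.015), and neither passed without the block (adjusted p = 0.24 and 0.14). Without control library 3 the blocked edgeR adjusted p for CA9 was 0.095 and 0.0025, so only the latter passed. VEGFA, a target of both subunits, was at 745.3, 288.5 and 398.9 CPM in control, 895.4, 825.8 and 1707 CPM in HIF-1α re-expressing and 712.8, 1274 and 1035 CPM in HIF-2α overexpressing libraries.

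Chemokines are small secreted proteins that act through membrane-spanning receptors. CXCR4 signals through inhibitory G proteins on binding CXCL12 and guides migration, whereas ACKR3 binds the same ligand without coupling to G proteins, recruits arrestin and removes the ligand from the surroundings. CXCL1, CXCL2, CXCL3 and IL8 carry the ELR motif, act on CXCR2 (IL8 also on CXCR1) and attract neutrophils and endothelial cells. CCL2 attracts monocytes through CCR2, and IL6 signals through its receptor and gp130 to JAK kinases and STAT3. Many of these ligand genes are known targets of NF-κB and AP-1, and CXCR4 is a known HIF target in renal carcinoma. Per kilobase of exonic sequence, the mean level over the 9 libraries was 54.3 CPM per kb for ACKR3, 21.6 for IL8, 7.56 for CXCL1, 5.38 for CXCL2, 5.0 for IL6, 1.73 for CXCR4, 0.929 for CCL2 and 0.721 for CXCL3. The SDs over libraries on the same scale were 75.8 for ACKR3, 22.5 for IL8, 5.08 for CXCL1, 2.87 for CXCL2, 3.33 for IL6, 2.87 for CXCR4, 0.989 for CCL2 and 0.296 for CXCL3, so no neighbours in this order differed by more than the larger of their SDs. In bulk RNA, fewer expressing cells and less RNA per cell cannot be told apart for any of these values.

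**Figure D1:**
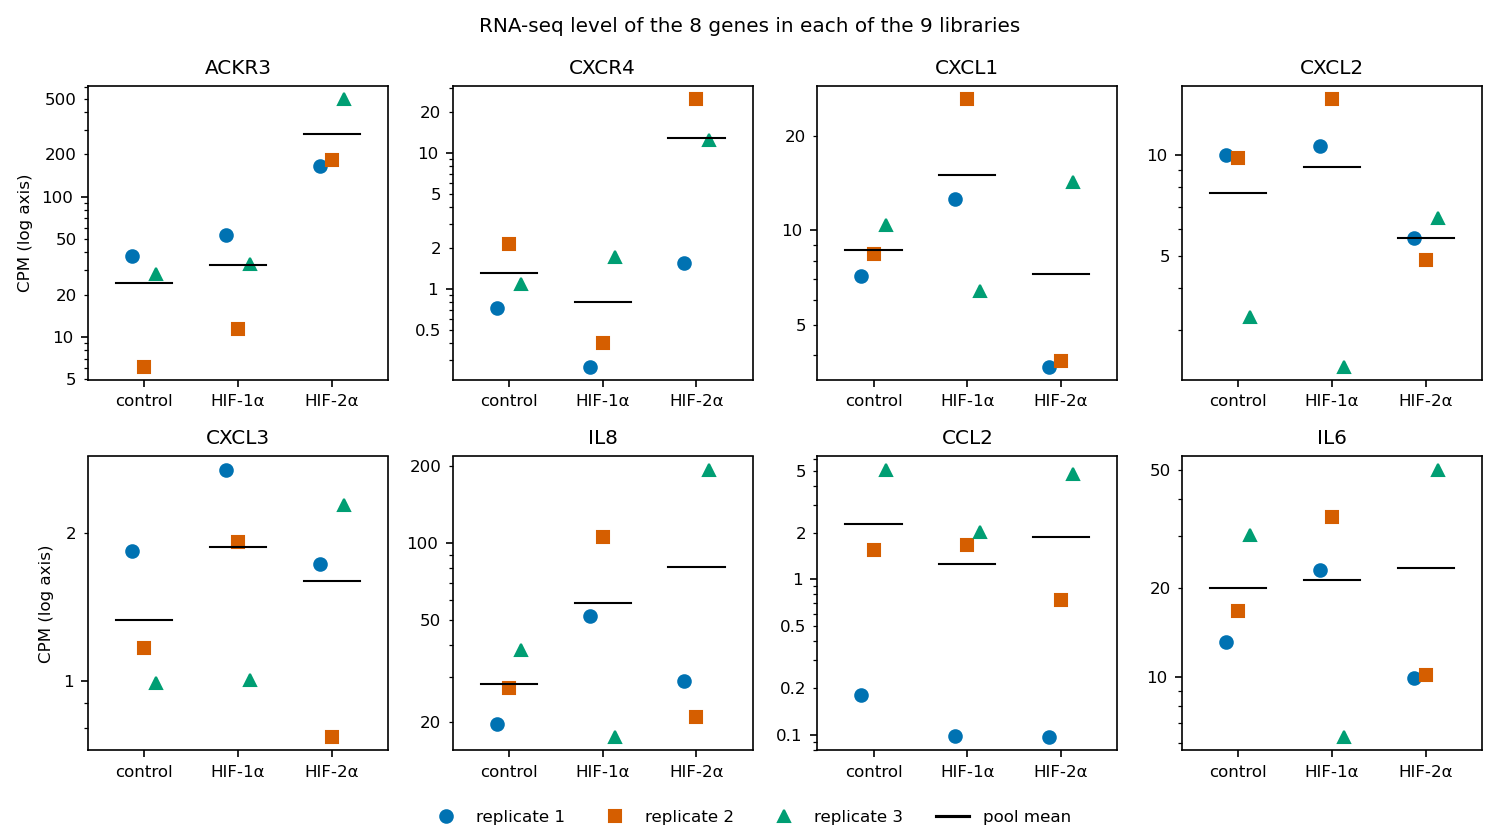
Level of the 8 genes in each RNA-seq library, in CPM on log axes, by pool; symbols mark the replicate number and black bars the pool mean. For ACKR3 the 3 HIF-2α overexpressing libraries, from 166.5 to 493.3 CPM, all lie above the other 6 libraries, while for the other 7 genes the libraries of every pair of pools overlap.

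ACKR3 stood at 38.0, 6.14 and 28.0 CPM in control libraries 1, 2 and 3. It was at 53.3, 11.3 and 33.3 CPM in HIF-1α re-expressing and at 166.5, 182.6 and 493.3 CPM in HIF-2α overexpressing libraries. No HIF-2α overexpressing library overlapped a library of another pool, and library 2 was the lowest of its pool in control and HIF-1α re-expressing cells. Within a replicate number, ACKR3 was 4.39, 29.7 and 17.6 times its control level in HIF-2α overexpressing cells. For EPAS1 these ratios were 2.07, 14.5 and 5.43. By level, however, ACKR3 was highest in HIF-2α overexpressing library 3 (493.3 CPM), where EPAS1 was lowest of that pool (879.8 CPM). EPAS1 was highest in library 2 (3244 CPM), where ACKR3 was at 182.6 CPM. A relation of ACKR3 to EPAS1 was not tested. The fitted log2 fold change of ACKR3 was 3.54 (SE 0.77), or 3.85 (SE 0.50) with the replicate number as a block, and 2.87 to 4.5 over all alternatives run. Without control library 3 it was 3.67, or 3.83 with the block. ACKR3 was the gene for which the set was selected, and these values only describe it.

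CXCR4 was a weakly expressed gene in these cells, at 0.724, 2.13 and 1.09 CPM in control libraries 1, 2 and 3 (28, 75 and 42 counts). It was at 0.270, 0.405 and 1.73 CPM in HIF-1α re-expressing (11, 16 and 93 counts) and at 1.56, 24.8 and 12.4 CPM in HIF-2α overexpressing libraries (65, 712 and 484 counts). HIF-2α overexpressing libraries 2 and 3 lay above every other library, and library 1 lay within the range of the control cells. Within a replicate number the ratio of HIF-2α overexpressing to control cells was 2.16, 11.6 and 11.4, and the fitted log2 difference was 3.29 (SE 0.98), or 2.84 (SE 0.68) with the block. In HIF-1α re-expressing cells CXCR4 was at 0.372 and 0.190 times the control level in replicates 1 and 2 and at 1.58 times in replicate 3. That difference did not pass the test (log2 fold change -0.69, SE 0.93, edgeR quasi-likelihood adjusted p = 0.71).

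CXCL12, the ligand that both receptors share, was at 0 to 0.0759 CPM in all libraries and failed the filter, so its level could not be compared at this depth. CXCL11, the other ligand of ACKR3, was at 0 to 0.228 CPM. Of the 14 genes fixed as signalling partners of the receptors, 11 were tested. GNAI2 and GNAI3, inhibitory G protein subunits, were at 346.5 and 202.8 CPM on average, and ITCH, the ligase that sorts CXCR4 for degradation, at 148.2 CPM. With the block, ADRBK2 (GRK3), a kinase that phosphorylates CXCR4 for desensitization, rose in HIF-1α re-expressing cells by a log2 fold change of 2.12 (SE 0.49, adjusted p = 0.042 by edgeR's quasi-likelihood test), from 2.04, 2.11 and 3.75 CPM in control to 9.56, 11.9 and 13.1 CPM, and no other gene of this list passed. The block thus called 1 of the 11 genes, beside 7.96% of all genes tested. The list's median was 0.26 against 0.04 over all genes tested. Without the block, or without control library 3, none passed (adjusted p = 0.16 and 0.12 for ADRBK2).

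In HIF-2α overexpressing against control cells, libraries did not overlap for 1 of the 8 genes, ACKR3, beside 11.2% of all genes tested. The fit without a block called 0 of them, beside 0% of all genes, with 838 of all 14225 genes at an unadjusted p under 0.05, and the blocked fit called 1, again ACKR3, beside 0.267% of all genes. DESeq2 called 2, ACKR3 and CXCR4. The choice of the set used this contrast, and nothing is read from these counts.

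The peaks near the receptor genes were all distal. The lists give positions of equal width (2500 bases) and no score, and distances here run from a peak's midpoint to the nearest annotated start site. ACKR3 (chr2:237476430-237490997 on GRCh37, plus strand) had no peak within 50 kb in any list and 5 sites downstream of its start within 200 kb, where a site is a group of peaks that share at least 1 base. The nearest, 73.0 kb downstream and intergenic, was in the lists of HIF-1β from control cells and of HIF-1β and HIF-2α from HIF-2α overexpressing cells, and in none from HIF-1α re-expressing cells. The next, 91.8 kb downstream and intergenic, was in the HIF-2α list of HIF-2α overexpressing cells alone. A site at 174.6 kb was in the control HIF-1β and HIF-2α lists, the HIF-1β list of HIF-1α re-expressing cells and the HIF-2α list of HIF-2α overexpressing cells. The site at 179.6 kb was in 5 lists, including HIF-1α, and lay like the one before it in an intron of the transcript ENSG00000232328. The last, at 199.9 kb, was in the HIF-1β lists of control and of HIF-2α overexpressing cells. Only for the site at 73.0 kb was the ACKR3 start the nearest annotated start. That of ENSG00000232328 was nearer to the others, at 71.6, 8.35, 3.38 and 16.9 kb in the order given. With 1 library per list and no signal values, absence from a list says only that no peak was called, and no comparison of peaks was tested.

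The central 300 bases of the 4 sites that were in the HIF-2α list of HIF-2α overexpressing cells are shown because they are the nearest sequences to ACKR3 under such peaks. They are read 5′ to 3′ on the plus strand of GRCh37, with the HRE core (ACGTG or GCGTG, on either strand) and the AP-1 motif (TGACTCA or TGAGTCA) in capitals.
ACKR3 site at 73.0 kb, chr2:237551275-237551574: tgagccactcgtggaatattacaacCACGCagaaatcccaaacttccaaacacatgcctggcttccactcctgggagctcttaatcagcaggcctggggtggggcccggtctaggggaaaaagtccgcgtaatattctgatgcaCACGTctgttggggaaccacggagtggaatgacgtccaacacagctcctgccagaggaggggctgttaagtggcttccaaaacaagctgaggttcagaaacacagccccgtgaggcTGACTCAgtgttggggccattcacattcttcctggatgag
ACKR3 site at 91.8 kb, chr2:237570156-237570455: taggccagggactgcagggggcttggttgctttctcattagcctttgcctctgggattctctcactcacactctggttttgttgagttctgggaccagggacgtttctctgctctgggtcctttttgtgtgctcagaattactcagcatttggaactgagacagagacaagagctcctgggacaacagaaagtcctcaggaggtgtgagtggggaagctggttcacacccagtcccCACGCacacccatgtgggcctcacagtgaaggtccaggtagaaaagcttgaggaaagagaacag
ACKR3 site at 174.6 kb, chr2:237652916-237653215: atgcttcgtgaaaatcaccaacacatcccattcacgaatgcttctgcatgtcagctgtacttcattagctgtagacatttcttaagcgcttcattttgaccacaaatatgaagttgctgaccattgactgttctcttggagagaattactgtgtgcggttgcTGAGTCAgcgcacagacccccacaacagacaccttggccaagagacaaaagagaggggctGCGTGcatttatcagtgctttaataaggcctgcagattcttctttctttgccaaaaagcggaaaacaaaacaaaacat
ACKR3 site at 179.6 kb, chr2:237657892-237658191: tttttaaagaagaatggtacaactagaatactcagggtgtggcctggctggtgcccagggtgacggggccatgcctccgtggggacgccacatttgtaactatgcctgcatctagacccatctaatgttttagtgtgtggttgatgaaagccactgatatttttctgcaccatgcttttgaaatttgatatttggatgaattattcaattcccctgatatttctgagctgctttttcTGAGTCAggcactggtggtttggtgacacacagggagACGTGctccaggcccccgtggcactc
All 4 windows held an HRE core (2 at the nearest site and 1 at each of the others), and 3 held an AP-1 motif as well, the exception being the site at 91.8 kb. Among all 5283 windows of that list, 45.7% held an HRE core and 24.7% an AP-1 motif. A match is a description of the letters only.

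CXCR4 (chr2:136871919-136876747, minus strand) had no peak within 50 kb either, but an intergenic site 127.2 kb upstream of its nearest start was present in all 7 lists. The nearest annotated start to that site was that of ENSG00000279024, at 15.6 kb. In contrast to ACKR3, no site within 200 kb of CXCR4 was listed in HIF-2α overexpressing cells and missing from control cells. The centre of the upstream site is shown because it was called under every antiserum and in every pool.
CXCR4 upstream site, chr2:137003815-137004114: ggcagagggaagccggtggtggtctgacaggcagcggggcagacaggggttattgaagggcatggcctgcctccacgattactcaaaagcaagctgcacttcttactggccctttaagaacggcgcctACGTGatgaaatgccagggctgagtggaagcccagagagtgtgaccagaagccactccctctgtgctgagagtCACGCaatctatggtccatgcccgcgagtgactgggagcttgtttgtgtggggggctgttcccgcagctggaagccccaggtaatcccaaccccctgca
It held 2 HRE cores and no AP-1 motif. The RefSeq promoters of CXCR4 (250 bases before each of its 3 starts, GRCh38.p14) held 1, 0 and 2 HRE cores, and 43.2% of all 35116 RefSeq promoters of that length hold at least 1.

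**Figure D2:**
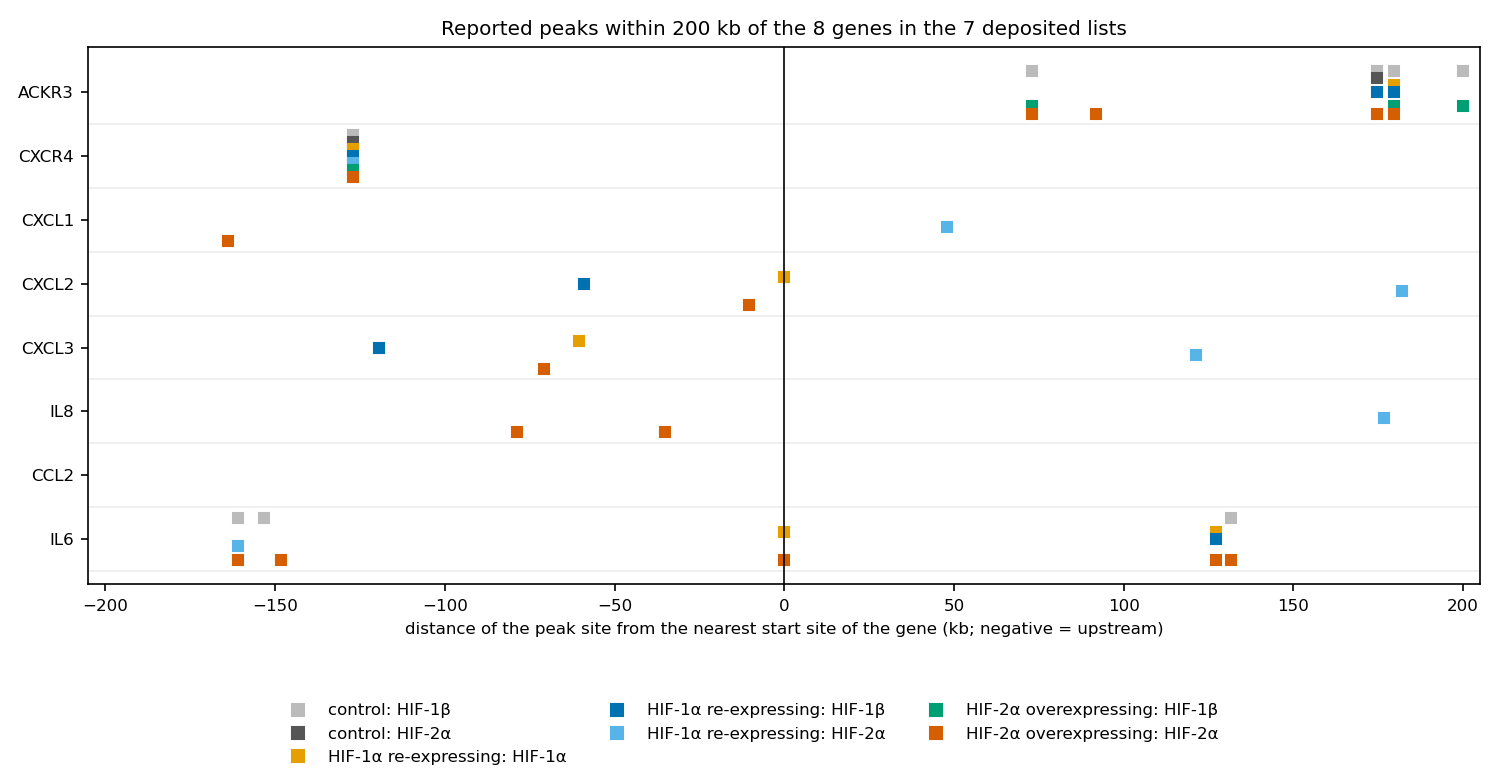
Distance in kb of the reported peak sites within 200 kb from the nearest start site of the gene, with 1 square per list that holds the site and negative distances upstream. ACKR3 has 5 sites, all downstream from 73.0 to 199.9 kb, CXCR4 has a site 127.2 kb upstream in all 7 lists, and CCL2 has none.

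The ELR chemokines and IL6 did not differ between pools beyond the spread of the replicates, but that spread had a pattern. IL8, the most abundant ligand, was at 19.6, 27.2 and 38.1 CPM in control libraries 1, 2 and 3. It was at 51.8, 106.0 and 17.5 CPM in HIF-1α re-expressing and at 28.8, 20.9 and 193.1 CPM in HIF-2α overexpressing libraries. The highest libraries were thus HIF-2α overexpressing 3 and HIF-1α re-expressing 2, and the lowest was HIF-1α re-expressing 3. CXCL1 was at 7.17, 8.39 and 10.4 CPM in control, 12.6, 26.1 and 6.42 CPM in HIF-1α re-expressing and 3.68, 3.84 and 14.2 CPM in HIF-2α overexpressing libraries. IL6 was at 13.2, 16.7 and 30.2 CPM in control, 23, 34.7 and 6.27 CPM in HIF-1α re-expressing and 9.97, 10.2 and 50.2 CPM in HIF-2α overexpressing libraries. For CXCL1 and IL6, as for IL8, replicate 3 was the lowest library of the HIF-1α re-expressing pool and the highest of the control and HIF-2α overexpressing pools.

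Within a replicate number, IL8 in HIF-1α re-expressing cells was 2.64 and 3.90 times the control level in replicates 1 and 2 and 0.459 times in replicate 3. For CXCL1 the ratios were 1.75, 3.11 and 0.619, and for IL6 they were 1.75, 2.08 and 0.208. The genes thus lay above control in replicates 1 and 2 and below it in replicate 3. In HIF-2α overexpressing cells the ratios to the same control libraries were 1.47, 0.771 and 5.07 for IL8, 0.514, 0.457 and 1.37 for CXCL1 and 0.755, 0.610 and 1.66 for IL6. Here replicate 3 gave the highest ratio for each of them. After subtraction of the pool means, log2 levels of the 3 genes correlated with Pearson's r of 0.967 to 0.984 over the 9 libraries, which share their replicate rounds and depth (0.764 to 0.893 without the subtraction). CXCL2, CXCL3 and CCL2 followed them less closely within pools, with r of 0.426 to 0.605 against IL8, CXCL1 and IL6. These correlations describe the libraries, and the part of the replicate round in them was not tested.

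**Figure D3:**
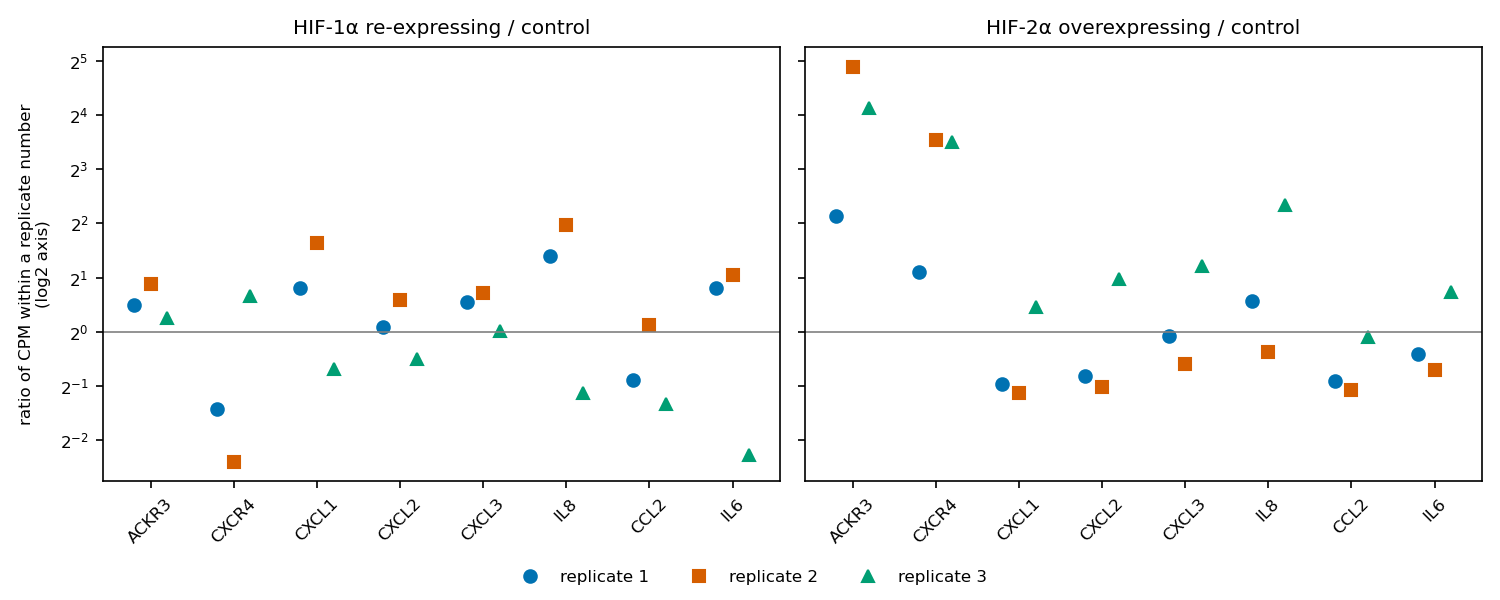
Ratio of CPM in HIF-1α re-expressing (left) and HIF-2α overexpressing cells (right) to the control library of the same replicate number, on a log2 axis with 1 symbol per replicate; both panels divide by the same control libraries. CXCL1, CXCL2, IL8 and IL6 lie above 1 in replicates 1 and 2 and below 1 in replicate 3 on the left, and on the right replicate 3 is the highest for each of them.

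CXCL2 was at 10.0, 9.81 and 3.28 CPM in control libraries 1, 2 and 3. It was at 10.6, 14.7 and 2.33 CPM in HIF-1α re-expressing and at 5.66, 4.85 and 6.47 CPM in HIF-2α overexpressing libraries. Replicate 3 was the lowest of the control and HIF-1α re-expressing pools, and the HIF-2α overexpressing libraries lay within the range of the other pools. CXCL3, the weakest of the ligands per kilobase, was at 1.84, 1.17 and 0.990 CPM in control, 2.70, 1.92 and 1.01 CPM in HIF-1α re-expressing and 1.73, 0.768 and 2.29 CPM in HIF-2α overexpressing libraries. All pools overlapped. CXCL1, CXCL2 and CXCL3 are close paralogs and the study kept only uniquely mapped reads, so the levels of each, and any split between them, are uncertain.

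CCL2 differed far more between replicate numbers than between pools. It was at 0.181, 1.54 and 5.08 CPM in control, 0.098, 1.67 and 2.01 CPM in HIF-1α re-expressing and 0.0963, 0.733 and 4.78 CPM in HIF-2α overexpressing libraries. Replicate 1 was the lowest and replicate 3 the highest in every pool. For CCL2 and CXCL3 the annotated exons together span the whole gene, and the levels per kilobase are divided by that length.

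Re-expression of HIF-1α, which shares its control libraries with the comparison above, left all 8 genes below the threshold. In HIF-1α re-expressing against control cells 6 genes were higher and 2 lower, with a median log2 fold change of 0.42 in the blocked fit, beside 0.04 for all genes. The fit without a block called 0 of 8, beside 0% of all genes, and no member reached an unadjusted p under 0.05, as 2757 of all genes did. With the block again 0 of 8 passed, beside 7.96% of all genes, and DESeq2 also called 0. Libraries were separate for 0 of 8, beside 24.1% of all genes. The greatest rise was that of IL8 (log2 fold change 1.05, SE 0.83, adjusted p = 0.50 by edgeR, and 1.28, SE 0.81, adjusted p = 0.29 with the block). For CXCL1 it was 0.80 (SE 0.60, adjusted p = 0.48), and for ACKR3 0.44 (SE 0.70, adjusted p = 0.76), although ACKR3 was higher in 3 of 3 replicates, by 1.40, 1.84 and 1.19 times. Without control library 3, again 0 of 8 passed with or without the block. The log2 fold change of CCL2 then turned from -0.84 to 0.55 and that of CXCL2 from 0.26 to -0.11, and that of IL6 moved from 0.09 to 0.51. With the block, that of CXCR4 moved from -0.83 to -1.48 without this library. With SEs of 0.53 to 1.36 on the log2 scale, small changes were not detectable with 3 libraries a pool.

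**Figure D4:**
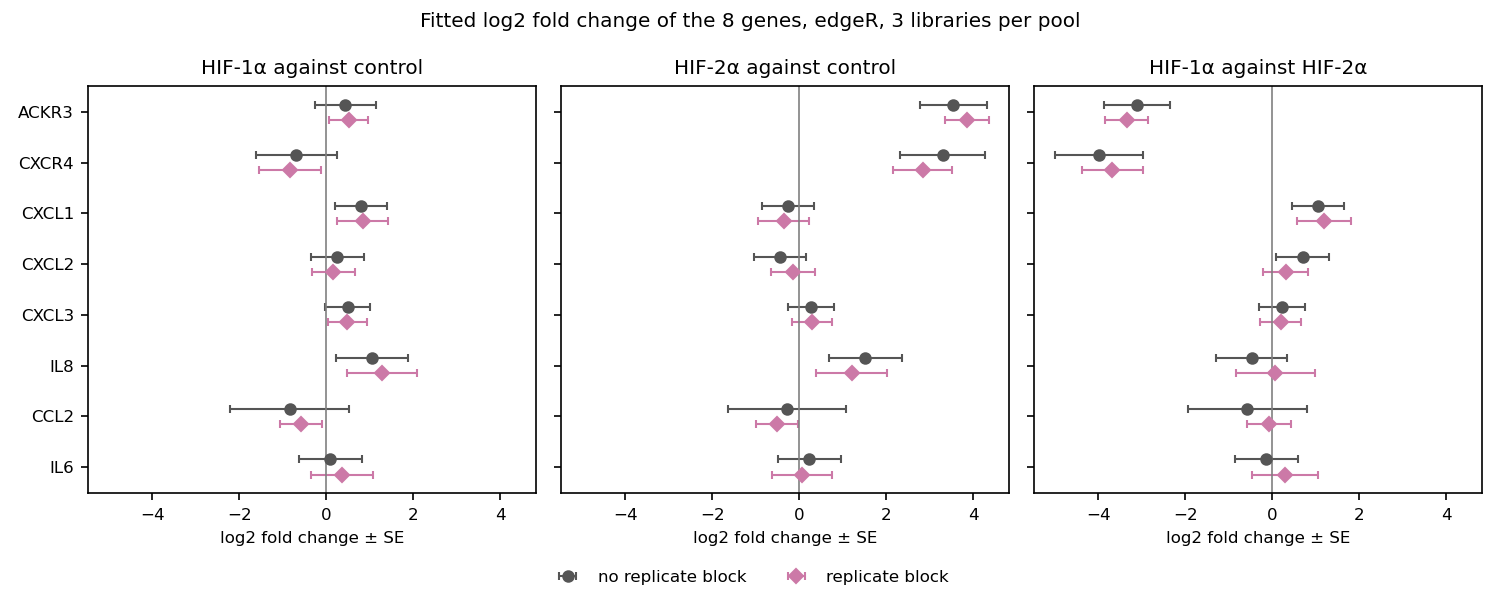
Fitted log2 fold change of the 8 genes with its SE in the 3 comparisons, from edgeR with (diamonds) and without (circles) the replicate number as a block, 3 libraries per pool. ACKR3 and CXCR4 stand near 3 to 4 for HIF-2α against control and near -3 to -4 for HIF-1α against HIF-2α, and the ligands lie within 2 of zero.

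The pools were also compared directly. The HIF-2α overexpressing libraries are those in which the rise of ACKR3 had been seen, so for ACKR3 this contrast is described only: the ratio of HIF-1α re-expressing to HIF-2α overexpressing cells was 0.320, 0.0620 and 0.0675 within replicates 1, 2 and 3, and the fitted log2 difference was -3.10 (SE 0.76), or -3.34 (SE 0.49) with the block. CXCR4 was lower in HIF-1α re-expressing cells in 3 of 3 replicates, with ratios of 0.172, 0.0163 and 0.139. Its log2 difference of -3.99 (SE 1.01) did not pass the test without the block (adjusted p = 0.12, edgeR quasi-likelihood). With the block it was -3.67 (SE 0.71) and passed, with an edgeR adjusted p of 0.020. Without the replicate 2 libraries the blocked difference was -2.69 with an edgeR adjusted p of 0.059. The call thus did not hold without that replicate, in a fit that also had fewer libraries. Without control library 3 the blocked difference was -3.82 and passed (edgeR adjusted p = 0.020). CXCR4 levels of the pools overlap, because HIF-1α re-expressing library 3 (1.73 CPM) exceeds HIF-2α overexpressing library 1 (1.56 CPM).

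In this contrast 0 of 8 genes were called without a block, beside 0.0492% of all genes, with 1941 of all genes at an unadjusted p under 0.05. Of the 7 genes other than ACKR3, the block called 1, CXCR4, beside 5.93% of all genes, and so did DESeq2. Libraries were separate for none of these 7, beside 19.2% of all genes. For the ligands the difference was 1.05 for CXCL1 (SE 0.61, adjusted p = 0.47), 0.70 for CXCL2 (SE 0.61, adjusted p = 0.65) and -0.47 for IL8 (SE 0.82, adjusted p = 0.84) by edgeR. For IL6 it was -0.14 (SE 0.72, adjusted p = 0.96). The directions of IL8 and IL6 turned to 0.07 and 0.30 with the block. With the replicate 3 libraries left out and the block kept, an alternative added after seeing the data, CXCL1 and IL6 were higher in HIF-1α re-expressing cells by 2.28 (edgeR adjusted p = 0.020) and 1.48 (adjusted p = 0.027). Replicate 3 was the only replicate in which they were lower there (ratios of 0.453 and 0.125). It thus decides both calls, and p-values from a fit without the opposing replicate are no independent evidence of a difference.

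Peaks near the ligand genes were few and differed from list to list. IL6 (chr7:22765503-22771621, plus strand) had a peak 0.195 kb upstream of the nearest of its 7 annotated starts in the HIF-1α list and one 0.204 kb upstream in the HIF-2α list of HIF-2α overexpressing cells, and none there in control cells. The annotation places the antisense gene IL6-AS1 over IL6, and the strand setting of the counting is not given in the sources used here, so reads of the pair may not have been told apart. CXCL2 (chr4:74962757-74964913, minus strand) had a HIF-1α peak 0.085 kb upstream of its start and a HIF-2α peak of HIF-2α overexpressing cells 10.3 kb upstream. IL8 (chr4:74606236-74609433, plus strand) had a HIF-2α peak 35.1 kb upstream and another 78.8 kb upstream, in HIF-2α overexpressing cells alone. CXCL1 (chr4:74735110-74737025, plus strand) had a HIF-2α peak of HIF-1α re-expressing cells 47.9 kb downstream. Other annotated starts lay nearer to some of these peaks. MTHFD2L was 4.67 kb from the peak 10.3 kb upstream of CXCL2. ENSG00000289530 was 4.13 kb and RASSF6 41 kb from the peaks 35.1 and 78.8 kb upstream of IL8. HNRNPA1P55 was 22.3 kb from the CXCL1 peak. CXCL3 (chr4:74902306-74904524, minus strand) had none within 50 kb, and CCL2 (chr17:32582293-32584227, plus strand) none within 200 kb.

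Within 50 kb of a start site the HIF-1α list thus had a peak for 2 of the 8 genes, beside 50.7% of the 13778 tested genes that could be placed on the annotation. The HIF-2α list of HIF-2α overexpressing cells had one for 3, beside 28.4%, and the HIF-2α list of HIF-1α re-expressing cells for 1, beside 10.4%. The other lists had none for these genes: control HIF-1β (44.1% of all genes), control HIF-2α (12.1%), HIF-1β of HIF-1α re-expressing (57.3%) and HIF-1β of HIF-2α overexpressing cells (30.1%). Over all lists the count was 4 of 8, beside 72.3%, and within 200 kb 7 of 8, beside 89.4%. Over all lists these genes were thus no more often near a peak than the genes tested. Of the 19 sites within 200 kb, 10 were in more than 1 list.

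The promoters of the ligands are shown because the genes that varied together can then be compared. They are the 250 bases before the RefSeq start on the strand of the gene (GRCh38.p14), with matches to the κB consensus, the AP-1 motif and the HRE core in capitals, both strands searched. The κB consensus searched was GGGRNWYYCC (R is A or G, W is A or T, Y is C or T, N is any base). An entry was found for 6 of the 8 genes, and those of IL8, CXCL1, CXCL2, CXCL3 and IL6 follow.
IL8 promoter, chr4:73740319-73740568, plus strand: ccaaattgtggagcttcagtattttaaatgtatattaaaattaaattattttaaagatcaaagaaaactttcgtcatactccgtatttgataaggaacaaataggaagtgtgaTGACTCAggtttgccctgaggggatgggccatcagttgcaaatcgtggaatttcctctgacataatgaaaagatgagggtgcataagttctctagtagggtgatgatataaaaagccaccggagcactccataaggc
CXCL1 promoter, chr4:73869143-73869392, plus strand: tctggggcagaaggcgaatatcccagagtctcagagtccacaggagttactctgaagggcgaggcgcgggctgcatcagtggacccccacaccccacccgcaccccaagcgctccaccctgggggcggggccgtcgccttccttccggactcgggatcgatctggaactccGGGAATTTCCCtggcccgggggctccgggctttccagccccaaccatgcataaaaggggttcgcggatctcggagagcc
CXCL2 promoter, chr4:74099196-74099445, minus strand: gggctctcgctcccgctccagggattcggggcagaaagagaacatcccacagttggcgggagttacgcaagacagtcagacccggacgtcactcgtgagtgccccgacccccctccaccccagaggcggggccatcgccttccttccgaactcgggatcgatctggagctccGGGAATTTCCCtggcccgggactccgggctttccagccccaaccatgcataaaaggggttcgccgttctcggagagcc
CXCL3 promoter, chr4:74038690-74038939, minus strand: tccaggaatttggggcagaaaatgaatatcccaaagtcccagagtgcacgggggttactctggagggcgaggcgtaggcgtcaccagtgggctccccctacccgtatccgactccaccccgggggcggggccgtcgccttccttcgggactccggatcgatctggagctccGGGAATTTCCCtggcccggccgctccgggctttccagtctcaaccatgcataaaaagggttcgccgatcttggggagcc
IL6 promoter, chr7:22726950-22727199, plus strand: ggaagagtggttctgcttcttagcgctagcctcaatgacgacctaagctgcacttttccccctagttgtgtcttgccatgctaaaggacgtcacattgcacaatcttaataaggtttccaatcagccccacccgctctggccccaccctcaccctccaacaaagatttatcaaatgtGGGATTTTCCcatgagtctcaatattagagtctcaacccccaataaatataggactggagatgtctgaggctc
CXCL1 and CXCL3 had a κB match beginning 79 bases before the start, CXCL2 had one at 78 bases and IL6 one at 73 bases. IL8 had an AP-1 motif 137 bases before its start and no match to the κB consensus as searched. Its promoter holds TGGAATTTCC, which differs from that consensus in the first base only. The missing match therefore does not show that IL8 lacks a κB site. None of the 5 held an HRE core. A κB match was present in 5.21% of all RefSeq promoters, an AP-1 motif in 4.20% and an HRE core in 43.2%. The HIF-2α peak at the IL6 start can be set beside this. Its central 300 bases on GRCh37, shown with the AP-1 motif in capitals, held no HRE core, and neither did the centre of the HIF-1α peak at CXCL2.
IL6 start site peak, chr7:22766413-22766712, plus strand: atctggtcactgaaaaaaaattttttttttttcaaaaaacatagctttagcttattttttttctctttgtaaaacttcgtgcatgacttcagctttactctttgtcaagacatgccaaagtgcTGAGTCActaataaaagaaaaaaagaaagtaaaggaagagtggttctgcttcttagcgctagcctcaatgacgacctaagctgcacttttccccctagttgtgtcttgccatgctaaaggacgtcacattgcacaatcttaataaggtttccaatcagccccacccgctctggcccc
The centre of the HIF-2α peak 35.1 kb upstream of IL8 held 1 AP-1 motif and 1 HRE core, shown in capitals.
IL8 upstream peak, chr4:74570961-74571260, plus strand: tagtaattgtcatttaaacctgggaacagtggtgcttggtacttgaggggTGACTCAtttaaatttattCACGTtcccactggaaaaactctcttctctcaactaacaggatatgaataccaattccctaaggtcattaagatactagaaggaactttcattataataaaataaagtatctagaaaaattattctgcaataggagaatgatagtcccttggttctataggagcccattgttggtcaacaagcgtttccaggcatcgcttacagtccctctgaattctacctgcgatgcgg

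Other chemokine genes mostly failed the filter on low counts. Only uniquely mapped reads were kept, so a count near 0 does not by itself show a silent gene. Among the 33 further ligands measured, 8 were tested, led by CXCL5, an ELR chemokine, with a mean of 49.5 CPM, CX3CL1 with 10.5 CPM and CCL28, a mucosal chemokine, with 7.81 CPM. Without the block none was called in any comparison. With the block CCL28 rose in HIF-1α re-expressing cells, from 3.75, 3.53 and 2.08 CPM in control to 5.61, 27.4 and 8.99 CPM (log2 fold change 1.87, SE 0.42, adjusted p = 0.040 by edgeR), and the median of the 8 was -0.03 beside 0.04 for all genes. In this comparison the blocked fit called 1 of the 8, beside 7.96% of all genes. The CCL28 call was lost without control library 3 (edgeR adjusted p = 0.16). So were all 9 blocked calls of HIF-1α re-expressing against control cells in the lists described here. All 9 were also lost without the replicate 2 libraries (0.23 for CCL28), where the blocked edgeR fit called 0 of all genes. Without the replicate 3 libraries that fit called 1 gene, CA9 (0.036), and CCL28 did not pass (0.16). Without those of replicate 1 CCL28 passed (0.040). Among the 21 further receptors measured, 6 were tested, of which CCRL2, a chemerin-binding receptor without signalling, was at 3.33 CPM, CCR6, the receptor of CCL20, at 1.65 CPM and CCR10, the receptor of CCL28, at 0.868 CPM on average. CCR6 was at 0.440, 3.36 and 1.35 CPM in control, 0.196, 0.633 and 0.354 CPM in HIF-1α re-expressing and 0.457, 5.93 and 2.11 CPM in HIF-2α overexpressing libraries. With the block it fell by 1.90 on the log2 scale in HIF-1α re-expressing against control cells (SE 0.42, adjusted p = 0.040 by edgeR) and was lower than in HIF-2α overexpressing cells by a log2 difference of -2.47 (SE 0.42, adjusted p = 0.013). Without the block neither passed (edgeR adjusted p = 0.26 and 0.25), and without control library 3 only the second did (0.14 and 0.022). Without the replicate 1 libraries only the second passed (0.051 and 0.034). Neither passed without those of replicate 2 (0.23 and 0.13) or replicate 3 (0.16 and 0.075). CCR6 was lowest in HIF-1α re-expressing cells in 3 of 3 replicates, and CXCR4 in replicates 1 and 2.

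Among the cytokine genes around IL6, 22 of 28 were tested. OSMR, the oncostatin M receptor, was at 357.4 CPM, JAK1 at 334.8 CPM and LIF, a cytokine of the IL-6 family, at 194.6 CPM on average. With the block LIFR, the receptor of LIF, and OSM rose in HIF-1α re-expressing against control cells by 1.15 (SE 0.26, adjusted p = 0.041) and 2.10 (SE 0.54, adjusted p = 0.049) by edgeR, with OSM at no more than 0.637 CPM in any library. Without the block these calls were lost (adjusted p = 0.17 and 0.21), as they were without control library 3 (0.17 and 0.20). IL1R1, the receptor of interleukin-1, and OSM were higher in HIF-1α re-expressing than in HIF-2α overexpressing cells by 1.25 (SE 0.23, adjusted p = 0.017) and 2.46 (SE 0.57, adjusted p = 0.038), which again did not pass without the block (0.26 and 0.22). Without the replicate 1 libraries the blocked edgeR adjusted p was 0.073 for IL1R1 and 0.12 for OSM. It was 0.072 and 0.14 without those of replicate 2, and 0.037 and 0.15 without those of replicate 3. The median of the list was 0.37 and 0.35 in these comparisons, beside 0.04 and 0.01 for all genes, and in each of them the other 20 genes passed in neither direction. In each, 2 of 22 genes were thus called with the block, beside 7.96% and 5.93% of all genes.

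In the NF-κB list, 22 of 22 genes were tested. VCAM1, an adhesion molecule induced by NF-κB, was at 53.7, 87.0 and 291.3 CPM in control libraries 1, 2 and 3, at 81.2, 231.2 and 885.0 CPM in HIF-1α re-expressing and at 7.29, 6.25 and 44.2 CPM in HIF-2α overexpressing libraries. In every replicate it was highest in HIF-1α re-expressing and lowest in HIF-2α overexpressing cells. With the block it rose by 1.23 with HIF-1α (SE 0.29, adjusted p = 0.043) and differed by 4.33 between the HIF-1α and HIF-2α pools (SE 0.33, adjusted p = 0.0011) by edgeR. Its log2 value in HIF-2α overexpressing against control cells was -3.09 (SE 0.32, adjusted p = 0.013 by edgeR with the block). That adjusted p was 0.044, 0.038 and 0.052 without the libraries of replicate 1, 2 and 3, and 0.037 without control library 3. Without the block no call was made (edgeR adjusted p = 0.43 for the rise with HIF-1α, 0.13 between the HIF-1α and HIF-2α pools and 0.81 for HIF-2α against control). The difference between the HIF-1α and HIF-2α pools passed in the blocked fit also without control library 3 and without the libraries of any 1 replicate number (adjusted p of 0.0021 to 0.013), whereas the rise with HIF-1α did not (0.051 to 0.19). REL, an NF-κB subunit, rose with HIF-1α by 1.76 (SE 0.44, adjusted p = 0.045), and BCL3, a nuclear IκB protein, and TNFAIP2 were higher with HIF-1α than with HIF-2α by 1.27 (SE 0.23, adjusted p = 0.017) and 1.11 (SE 0.23, adjusted p = 0.024) in the blocked edgeR fit. Without control library 3 the edgeR adjusted p was 0.18 for REL, 0.021 for BCL3 and 0.029 for TNFAIP2. It was 0.060, 0.0499 and 0.042 without the replicate 1 libraries, and 0.19, 0.076 and 0.13 without those of replicate 2. Without those of replicate 3 it was 0.19, 0.066 and 0.12. CD74, a receptor of the cytokine MIF, and ADRBK2 likewise differed between these pools, by 1.29 (SE 0.32, adjusted p = 0.048) and 2.10 (SE 0.50, adjusted p = 0.042) with the block, CD74 not without any 1 replicate number (0.092 to 0.18) and ADRBK2 not without replicate 1 (0.18) or 3 (0.17). The medians of the NF-κB list were 0.15 in HIF-1α re-expressing against control cells and -0.20 against HIF-2α overexpressing cells, the latter opposite in sign to its 3 called genes, beside 0.04 and 0.01 for all genes. In these comparisons 2 and 3 of its 22 genes were called with the block, beside 7.96% and 5.93% of all genes. ICAM1, the most abundant of the list with a mean of 234.7 CPM, was at 178.5, 255.7 and 511.9 CPM in the HIF-2α overexpressing libraries and at 156.2 to 279.8 CPM in the other 6, and TNIP1, an inhibitor of NF-κB signalling with a mean of 216.3 CPM, was at 156.8, 217.0 and 307.0 CPM in the HIF-2α overexpressing libraries. HIF-2α overexpressing library 3, the highest for IL8 and IL6, was thus also the highest of all 9 for ICAM1, TNIP1 and LIF (336.2 CPM). The NF-κB list was mixed in this. NFKB1 and TRAF1, for example, were highest in that library too. VCAM1, TNFAIP2, BCL3, BIRC3 and NFKBIZ were each highest in an HIF-1α re-expressing library.

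Among 10664 genes with a mean of at least 5 CPM, those whose log2 level over the 9 libraries was most like that of each gene were LPCAT2 (r = 0.953) and SCML1 (0.950) for CXCR4, and SENP2 (0.959) and SLC35D1 (0.913) for ACKR3. For CXCL1 they were EFNB2 (0.894) and ZNF544 (0.887), for IL6 ZNF544 (0.955) and KLHL18 (0.952), and for IL8 ZXDC (0.889) and TRAF1 (0.878), of which TRAF1 reached 24.7 CPM in HIF-2α overexpressing library 3 and 3.95 to 9.16 CPM in the other 8. For CXCL2 they were DUSP6 (0.930) and SOX9 (0.911), for CXCL3 CD274 (0.942) and HMOX1 (0.916), and for CCL2 FBXO17 (0.967) and SEMA6B (0.962). A high r does not mean a change of like size. SENP2 ran from 36.9 to 62.0 CPM and ACKR3 from 6.14 to 493.3 CPM. ZXDC ran from 25.3 to 35.9 CPM and IL8 from 17.5 to 193.1 CPM. The libraries share pools and replicate numbers, and each r is among the highest of 10664 and rests on 9 points, so these are descriptions only.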

How the data were processed

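RNA-seq was made from 3 cell pools with 3 libraries each, and ChIP-seq peaks were listed for 7 libraries. The deposited table holds whole read counts for each gene symbol with no scaling. Per the study's methods they came from reads trimmed with Trim Galore, aligned to GRCh37 with TopHat 2.0.8b and Bowtie 1.0.0, restricted to unique alignments, and counted on UCSC genes with HTSeq 0.5.4p3 in intersection-strict mode. They deposited peaks as positions without score, after BWA alignment, removal of duplicates, and calling by both T-PIC and MACS. Input DNA libraries were not used here. Of the peak sites counted, 1 is not reported here.

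Counts were analysed with edgeR 4.0.16 (R 4.3.3): the low-count filter of edgeR, TMM factors, cell pool as the only term over all 9 libraries, the quasi-likelihood test and Benjamini-Hochberg adjusted p under 0.05. CPM values were scaled by the library total times the TMM factor. SEs are on the log2 scale. The study's methods used DESeq2 (1.42.0 here), which was an alternative, with the replicate number as a block, upper-quartile factors, other filters, the 2 pools alone, and each library left out. After subtraction of pool means, libraries of the same number in different pools correlated with r of 0.348 to 0.652 (9 pairs) and those of different numbers with r of -0.478 to 0.0281 (18 pairs), so the numbers pair the libraries, although no label says what a number marks. Blocked values stand beside a result wherever a call changes. Whether the libraries come from separate cultures is not stated, so p-values measure the spread between these samples. Their counts differed far beyond sampling noise (chi-square per degree of freedom of at least 130), so none was counted as a duplicate. With these depths that spread, not counting error, sets the precision. The depth of the ChIP-seq libraries is not known from the lists.

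Start sites and exonic lengths came from GENCODE lifted to GRCh37, on which 22053 of 23441 symbols were matched. The script was tested on simulated counts with known changes. Motifs were searched in Python 3.11.15, and figures drawn with matplotlib 3.10.9. The genes and lists were chosen with earlier results of these data known. Named genes were, per list, the 3 with the highest mean CPM. Up to 5 called with the block at an absolute log2 fold change of at least 1 were added. All epithelial and renal carcinoma markers were named, and per member the 2 genes most alike in log2 CPM.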

Additional observations from a re-analysis of the deposited data

Results flagged for a closer look

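Direct comparison of HIF-1α re-expressing with HIF-2α overexpressing cells tests whether these 2 pools differ. With the replicate block edgeR's adjusted p passed the threshold for the genes named here, and none of them passed edgeR's test without the block. The blocked fit called 843 of all 14225 genes tested, or 5.93%, so a call is not particular to these genes. DESeq2, which had no block, also called CXCR4. CXCR4 differed by -3.67 on the log2 scale, lower in HIF-1α re-expressing cells, and did not pass without the replicate 2 libraries (edgeR adjusted p = 0.059). CCR6 was lower there too, by -2.47. Higher in HIF-1α re-expressing cells were CA9 by 8.85, VCAM1 by 4.33, OSM by 2.46, ADRBK2 by 2.10, CD74 by 1.29, BCL3 by 1.27, IL1R1 by 1.25 and TNFAIP2 by 1.11. Of the 9 genes other than CXCR4, all passed without control library 3, 4 without the replicate 1 libraries, 3 without those of replicate 2 and 3 without those of replicate 3. ACKR3 is left out because the HIF-2α overexpressing libraries were used to choose it. With 3 libraries in a pool, Dixon's test of single values was not run.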

How the results depend on the processing

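Of 456 values of members' log2 fold changes under 19 alternatives, 399 kept direction and side of the threshold, 15 kept direction and passed it where the fit without a block did not, and 42 changed sign. In all, 16 passed, including IL6 with a changed sign. Genes called numbered 0 for HIF-1α against control, 0 for HIF-2α against control and 7 for HIF-1α against HIF-2α. With the replicate block they were 1132, 38 and 843, and with DESeq2 759, 60 and 603. For HIF-2α against control there was 1 without a filter and 2 with these pools alone, and for HIF-1α against HIF-2α there were 4 with upper-quartile factors, 82 without a filter, 31 at 1 CPM in 3 libraries and 0 with these pools alone. With 1 library or 1 round left out, genes called ranged from 0 to 295, 0 to 30 and 0 to 386. The blocked fit without control library 3, added after seeing the data, called 0, 7 and 729 genes, and 0, 0 and 2 members. It turned CXCL2 to -0.022 for HIF-1α against control and gave IL8 0.19 and IL6 0.22 for HIF-1α against HIF-2α, both of changed sign.

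Members called were 0 in each comparison, 1 (block) and 2 (DESeq2) for HIF-2α against control, and 2 (block) and 2 (DESeq2) for HIF-1α against HIF-2α. Leaving out gave 0 to 1 and 0 to 3. The replicate block turned IL8 to 0.075 and IL6 to 0.30 for HIF-1α against HIF-2α, and changed no other member's sign.

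Where leaving out 1 library or round changed a sign, the log2 fold changes for HIF-1α against control ran from -0.12 to 0.93 for ACKR3, -0.28 to 0.72 for CXCL2, -1.40 to 0.55 for CCL2 and -0.48 to 0.92 for IL6. For HIF-2α against control they ran from -1.19 to 0.059 for CXCL1, -0.92 to 0.20 for CXCL2, -0.32 to 0.62 for CXCL3, -0.18 to 1.96 for IL8, -2.47 to 1.13 for CCL2 and -0.98 to 0.65 for IL6. For HIF-1α against HIF-2α they ran from -0.36 to 1.25 for CXCL2, -0.30 to 0.94 for CXCL3, -1.25 to 1.57 for IL8, -1.15 to 1.60 for CCL2 and -0.70 to 1.48 for IL6. The cause was not tested. Members with a peak in any list numbered 4 within 50 kb, 2 within 10 kb and 7 within 200 kb, a window added after seeing the data. Peaks were counted as shared at 1 base, and requiring 50% of the shorter left the 10 shared sites at 10. Low counts limit CXCR4, CXCL3 and CCL2.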
